A study of Rattus norvegicus with 8 samples.

Results

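The Slc25 family, the carriers that move small metabolites across mitochondrial membranes, was described in neuronal somata and processes with and without chronic blockade of inhibition. The family was chosen with earlier results of these data known. Its members were all symbols of the count table that begin with Slc25a followed by a number, a rule that uses no measured value. This gave 48 of 28909 symbols, of which 39 could be tested, being among the 14309 genes that passed a filter on low counts (over 20 reads in 2 or more libraries).

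The material was embryonic hippocampal neurons of Sprague-Dawley rats, cultured on a perforated membrane that neurites cross and cell bodies do not. Material from above the membrane made up the somata samples, and material from beneath it the processes samples. One set of cultures received picrotoxin (PTX), a blocker of GABA-A receptors that raises network activity, for 48 h from day 18 to day 20 in vitro, and the other set served as control. Each of the 4 conditions (somata or processes, control or PTX) had 2 libraries made from ribosome-depleted total RNA, 8 in all. The label names primary hippocampal neurons, although cultures of this kind usually hold glia as well. The labels do not say whether the replicates came from separate preparations, so that p-values measure the spread between these libraries.

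SLC25 proteins share a fold of repeated transmembrane segments and sit, with few exceptions, in the inner mitochondrial membrane. They bring phosphate and ADP in and ATP out, run the malate-aspartate shuttle, pass citrate, glutamate, ornithine and acylcarnitines, and supply the matrix with cofactors such as coenzyme A, NAD, folate and glutathione. In neurons they link the respiratory chain to synaptic ATP use and to transmitter glutamate, and several of them carry calcium-binding domains on the side facing the cytosol.

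Library totals ranged from 12290890 to 18455662 counts. The 2 mitochondrial rRNAs took between 21.1% and 24.8% of the counts in somata libraries and between 64.9% and 68.3% in processes libraries, and genes outside the mitochondrial genome were left with 9517542 to 11227599 counts in somata and 4702054 to 5491237 in processes. A median tested gene thus had 268 to 319 reads in somata libraries and 96 to 110 in processes libraries, and 11 of the 39 tested members averaged fewer than 50 reads in processes. Neuronal markers were present in every library. Of 8, Map2 and Rbfox3 were higher in control processes than in control somata and the other 6 (Tubb3, Snap25, Slc17a7, Slc17a6, Gad1 and Gad2) were lower, with a median log2 fold change of -0.65. The 8 astrocyte markers were present as well, none of them at 0 in any library, and their summed level was 2779 to 4106 CPM (reads per 1e6 reads of the library, after TMM scaling) in somata and 10831 to 14296 in processes. Of these 8, 4 were higher in control processes (Gfap, S100b, Slc1a2 and Sox9) and 2 were lower (Slc1a3 and Gja1), and Gfap alone went from 1588 and 1781 CPM to 11111 and 9382. Oligodendrocyte-lineage markers summed to 269 to 453 CPM in somata and 469 to 647 in processes, the 7 measured microglial markers to 0.587 to 2.44 CPM over the libraries, and the 5 measured endothelial and fibroblast markers to 16.3 to 51.8 CPM with Cldn5 at 0. Neuronal and astrocyte markers thus differed between the compartments in both directions along with the carriers, and their part in the compartment differences was not tested. In RNA from whole compartments, fewer cells of a type and less RNA per cell cannot be told apart.

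Promoter windows are shown for Slc25a23 and Slc25a25, 2 calcium-binding ATP-Mg/phosphate carriers whose values with PTX lay on opposite sides of 0. The fall of Slc25a23 passed the test in processes, and the value of Slc25a25 passed in somata only in a fit that also took out the difference between replicate 1 and replicate 2, as described further on. The windows are the 250 bases before the start of each gene in RefSeq, assembly GRCr8, read 5′ to 3′ on the gene's own strand, and capitals mark a full cyclic-AMP response element (CRE), the binding site of the activity-regulated factor CREB. Slc25a23 (chr9:1985366-1985615, minus strand) held none of the motifs searched, and Slc25a25 (chr3:36116582-36116831, minus strand) held a full CRE that begins 158 bases before the start.
Slc25a23: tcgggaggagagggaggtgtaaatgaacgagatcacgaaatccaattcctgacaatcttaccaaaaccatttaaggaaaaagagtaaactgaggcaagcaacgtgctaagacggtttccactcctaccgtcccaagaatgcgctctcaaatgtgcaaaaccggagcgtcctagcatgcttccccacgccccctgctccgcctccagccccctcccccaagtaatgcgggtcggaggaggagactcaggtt
Slc25a25: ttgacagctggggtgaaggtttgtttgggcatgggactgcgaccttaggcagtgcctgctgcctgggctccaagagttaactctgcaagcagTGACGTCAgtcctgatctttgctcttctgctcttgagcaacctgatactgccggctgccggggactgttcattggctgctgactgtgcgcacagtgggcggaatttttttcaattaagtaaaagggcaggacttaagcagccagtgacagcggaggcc

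A unique window was found for 32 of the 39 tested members, against 33469 windows in all. The full CRE (TGACGTCA) was in 2 of the 32, Slc25a25 and the pyrimidine nucleotide carrier Slc25a33, or 6.25% against 1.59% of all windows. Its 5-letter core (TGACG, searched on both strands, as were all the motifs, and also counted inside the full element) was in 10 of 32, or 31.2% against 18.2%. An ETS site (CCGGAAG) was in 5 members (15.6% against 7.27%), an E-box (CACGTG) in 3 (9.38% against 5.59%), a TATA motif (TATAAA) in 1 (3.12% against 12.9%), and an NRF1 core (GCGCATGCG) in 0 (against 1.35%). The windows of the members were richer in G and C, with a median of 60.6% against 51.2% over all windows. Letters in a window are a description and do not show that a factor binds there. Slc25a33, the other member with a full CRE, passed in neither PTX comparison. Its PTX minus control differences in log2 CPM (replicates 1 and 2) were -0.02 and -0.19 in somata and -0.33 and -0.22 in processes. Slc25a32, which rose with PTX in somata, had no unique window. Whether any motif goes with the PTX values was not tested.

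The first comparison asked which carrier transcripts differed between processes and somata of control cultures. Of the 39 tested members, 7 were higher in processes (Slc25a10, Slc25a15, Slc25a20, Slc25a23, Slc25a34, Slc25a39 and Slc25a42) and 7 were lower (Slc25a12, Slc25a14, Slc25a17, Slc25a25, Slc25a27, Slc25a28 and Slc25a36), at an adjusted p under 0.05 by edgeR's quasi-likelihood test with Benjamini-Hochberg adjustment over all tested genes. Among all tested genes 25.8% were higher and 21.9% lower, while the members had 17.9% in each direction. Their median log2 fold change was 0.05, beside -0.05 for all tested genes, and single members ranged from -1.56 to 2.02. When a replicate block was added to the fit (a term that takes out the difference between replicate 1 and replicate 2), 9 members were higher and 7 lower, against 29.8% and 28% of all genes. These directions are relative to TMM scaling. By upper quartile factors 4 were higher and 11 lower. By library size alone, which counts the mitochondrial rRNA, 0 were higher and 38 lower, and the median of all tested genes also fell far below 0. Shares of all tested genes called under these scalings are not given here, so these counts do not set the carriers apart.

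Other mitochondrial gene lists are given beside the carriers. Of 80 tested nuclear-encoded respiratory chain genes 67 were higher in processes and 0 were lower, with a median log2 fold change of 1. Named by size of the difference, they were led by Atp5f1e at 2.14, Cox6a1 at 1.98 and Ndufa4l2 at 1.92. Transcripts for mitochondrial trafficking, fission and fusion had a median of 1.01 with 10 of 16 higher and 2 lower, led by Snph at 2.54, the mitochondrial anchor of axons, and by the motor adaptor and motor Trak2 at 2.41 and Kif5b at 2.29. The remaining lists lay closer to the carriers: mitochondrial ribosomal proteins had 21 of 75 higher and 6 lower (median 0.12), tricarboxylic acid cycle enzymes 7 of 19 higher and 0 lower (0.17), and other mitochondrial membrane transport proteins 10 of 21 higher and 3 lower (0.19). The enzymes of the malate-aspartate shuttle and of glutamate metabolism, which work on the substrates of several carriers, had 2 of 8 higher and 3 lower with a median of -0.29. No difference between lists was tested.

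**Figure D1:**
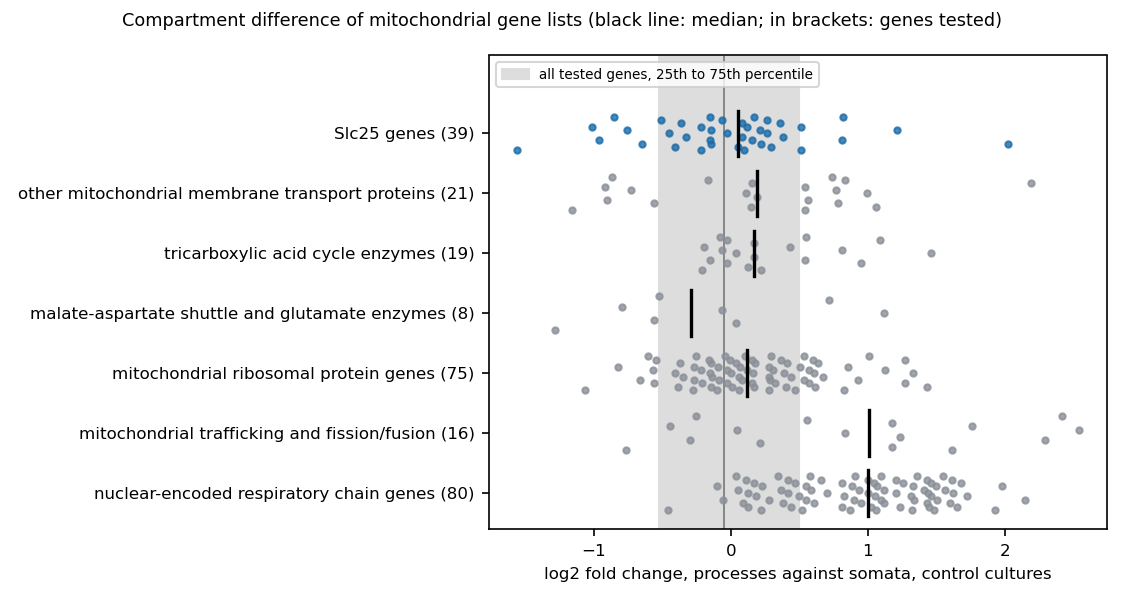
Log2 fold change between processes and somata of control cultures (x axis) for each tested gene of the Slc25 family and of 6 other mitochondrial lists (rows, points spread vertically for display); the black line is the list's median and the grey band spans the 25th to 75th percentile of all tested genes. The 39 Slc25 genes lie on both sides of 0 with a median of 0.05, whereas 67 of the 80 respiratory chain genes were higher in processes.

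Among the calcium-binding ATP-Mg/phosphate carriers, which load or unload the matrix adenine nucleotide pool when cytosolic calcium rises, the members went opposite ways. Slc25a23 stood at 61.4 and 60.1 CPM in somata of control cultures (replicates 1 and 2) and at 285 and 209 in processes. Both processes libraries lay above both somata libraries, and the log2 fold change of 2.02 (SE 0.152, adjusted p = 2.79e-06), or 4.07-fold, was the largest rise among the members. In PTX cultures the difference was 1.83 (adjusted p = 5.24e-06). Slc25a25 stood at 35.0 and 31.8 CPM in somata and at 25.6 and 23.3 in processes of control cultures. It was lower in processes without overlap, by a log2 fold change of -0.45 (SE 0.125, adjusted p = 0.0129), and by -0.60 in PTX cultures (adjusted p = 0.00219). Slc25a24 was measured on 11 to 14 reads per processes library, and its log2 fold change of -0.76 (adjusted p = 0.0647) did not pass in control cultures, whereas -0.96 (adjusted p = 0.0257) did in PTX cultures.

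The relatives of the uncoupling proteins in brain contained the largest falls. Slc25a14 (UCP5) stood at 11.5 and 9.09 CPM in control somata, 11.3 and 9.65 in PTX somata, 3.57 and 3.41 in control processes and 2.99 and 3.12 in PTX processes. Both control processes libraries, with 32 and 29 reads, lay below both somata libraries, as did those of PTX cultures. The log2 fold change was -1.56 (SE 0.206, adjusted p = 0.000135), and -1.78 in PTX cultures (adjusted p = 5.3e-05). Slc25a27 (UCP4) stood at 18 and 13.6 CPM in control somata, 20.7 and 15.8 in PTX somata, 9.70 and 5.87 in control processes and 7.81 and 5.63 in PTX processes. Replicate 1 was the higher library in each condition, and the groups did not overlap between compartments. The log2 fold change was -1.01 in control cultures (SE 0.255, adjusted p = 0.00768) and -1.45 in PTX cultures (adjusted p = 0.000899). Without replicate 1 of control somata or replicate 2 of control processes the first of these no longer passed, at adjusted p = 0.0523 and 0.0807. The third relative, Slc25a30, did not pass in either culture (0.17 and 0.21, adjusted p = 0.418 and 0.323).

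Of the 6 amino acid and carnitine carriers, 2 were higher in processes and 0 were lower in control cultures. Slc25a15, the ornithine carrier of the urea cycle, stood at 7.27 and 8.58 CPM in control somata, 6.98 and 7.83 in PTX somata, 17.3 and 19.5 in control processes and 19.6 and 21.5 in PTX processes. Every processes library lay above every somata library, with log2 fold changes of 1.21 (SE 0.151, adjusted p = 9.11e-05) and 1.48 (adjusted p = 1.98e-05), although its annotation in GRCr8 overlaps a non-coding gene, Lnc-hc, on the same strand, whose reads cannot be told apart here. Slc25a20, which carries acylcarnitines in for fatty acid oxidation, was higher by 0.36 (SE 0.122, adjusted p = 0.0324). The branched-chain amino acid carrier Slc25a44 passed in PTX cultures, at -0.52 (adjusted p = 0.0202), and stood at -0.22 in control cultures (adjusted p = 0.282). Slc25a2, Slc25a29 and Slc25a38, carriers of ornithine, basic amino acids and glycine, ranged from -0.33 to 0.30 in control cultures, and none of the 3 passed.

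None of the 3 tested members classed here as ADP/ATP and phosphate carriers passed the test between compartments without the block. Slc25a4, the ADP/ATP carrier ANT1, stood at 226 and 241 CPM in control somata, 278 and 269 in PTX somata, 260 and 260 in control processes and 269 and 257 in PTX processes. Slc25a5, the ADP/ATP carrier ANT2, stood at 85.3 and 97.1, 79.0 and 94.9, 94.7 and 97.9, and 89.6 and 101 CPM in the same order. The compartment differences of 0.15 (SE 0.105, adjusted p = 0.252) and 0.08 (SE 0.125, adjusted p = 0.63) did not pass, and the Slc25a5 groups overlapped. The phosphate carrier Slc25a3 stood at 137 and 144 CPM in control somata, 166 and 170 in PTX somata, 162 and 166 in control processes and 160 and 173 in PTX processes. Its log2 fold change of 0.22 in control cultures (SE 0.103) had an adjusted p of 0.104, and of 0.0385 with the replicate block. RefSeq names 9 pseudogenes of Slc25a5 and 2 of Slc25a3 in this genome, whose reads may be split with the parent genes.

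Of the 5 carriers of the malate-aspartate shuttle and of glutamate, 1 was lower in control processes and 0 were higher. Slc25a12 (aralar), a calcium-regulated aspartate/glutamate carrier, stood at 47.1 and 58.0 CPM in control somata, 46.6 and 51.7 in PTX somata, 34.3 and 39.5 in control processes and 33.3 and 35.8 in PTX processes. Both processes libraries lay below both somata libraries in each culture, with a log2 fold change of -0.51 in control cultures (SE 0.134, adjusted p = 0.00963) and -0.51 in PTX cultures (adjusted p = 0.00946). Its partner in the shuttle, the oxoglutarate/malate carrier Slc25a11, stood at 34.7 and 34.5 CPM in control somata, 37.1 and 33.3 in PTX somata, 37.7 and 30.2 in control processes and 39.3 and 33.6 in PTX processes. These ranges overlapped (log2 fold change -0.03, SE 0.136, adjusted p = 0.885). The other aspartate/glutamate carrier, Slc25a13 (citrin), was close to the read limit, with 1.83 to 2.13 CPM in somata and 2.07 to 3.12 CPM in processes, and did not pass (0.21, adjusted p = 0.578).

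The 2 glutamate carriers import glutamate with a proton. Slc25a22 (GC1) stood at 51.0 and 38.7 CPM in control somata, 68.9 and 57.7 in PTX somata, 57.9 and 36.6 in control processes and 55.5 and 42.9 in PTX processes. Control compartments overlapped (0.08, adjusted p = 0.787), whereas in PTX cultures both processes libraries lay below both somata libraries, at -0.37 (SE 0.212), with an adjusted p of 0.174, and 0.00295 with the replicate block. Its GRCr8 annotation overlaps Cend1 on the same strand. Slc25a18 (GC2) stood at 14.0 and 8.54 CPM in control somata, 10.1 and 8 in PTX somata, 15.1 and 14.2 in control processes and 10.1 and 9.05 in PTX processes. The control compartments did not overlap but the somata libraries lay far apart, and the log2 fold change of 0.38 (SE 0.225) had an adjusted p of 0.188, and 0.0331 with the block. In PTX cultures it was 0.08 (adjusted p = 0.803).

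Of 13 tested carriers of cofactors, nucleotides and metals, 2 were higher and 3 lower in control processes. Slc25a39, which imports glutathione, rose from 28.4 and 38.6 CPM in control somata to 56.3 and 61.4 in processes, a log2 fold change of 0.81 (SE 0.145, adjusted p = 0.00104). RefSeq names 8 pseudogenes of it. Its paralogue Slc25a40 stood at 0.26 (adjusted p = 0.487) on 20 to 25 reads per control processes library. The pyrimidine nucleotide carrier Slc25a36 fell from 25 and 22 CPM to 11.6 and 14.4 in control cultures, a log2 fold change of -0.85 (SE 0.172, adjusted p = 0.00224), and from 31.1 and 26.0 CPM to 11.1 and 14.6 in PTX cultures, a log2 fold change of -1.15 (SE 0.170, adjusted p = 0.000282), while the related Slc25a33 stood at 0.05 (adjusted p = 0.85). Mitoferrin-2, Slc25a28, which brings iron to the matrix, was lower by -0.65 (adjusted p = 0.0433), and the peroxisomal carrier Slc25a17 by -0.41 (adjusted p = 0.0225). Among the rest of the family, Slc25a34, whose substrate is less settled, was higher at 0.81 (SE 0.158, adjusted p = 0.00174), as was the dicarboxylate carrier Slc25a10 at 0.51 (adjusted p = 0.0395). Slc25a46, an outer membrane member that takes part in membrane remodelling, stood at 31.7 and 31.1 CPM in control somata, 32.9 and 31.1 in PTX somata, 25.3 and 31.1 in control processes and 27.1 and 30.0 in PTX processes, with no call (-0.16, adjusted p = 0.334).

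**Figure D2:**
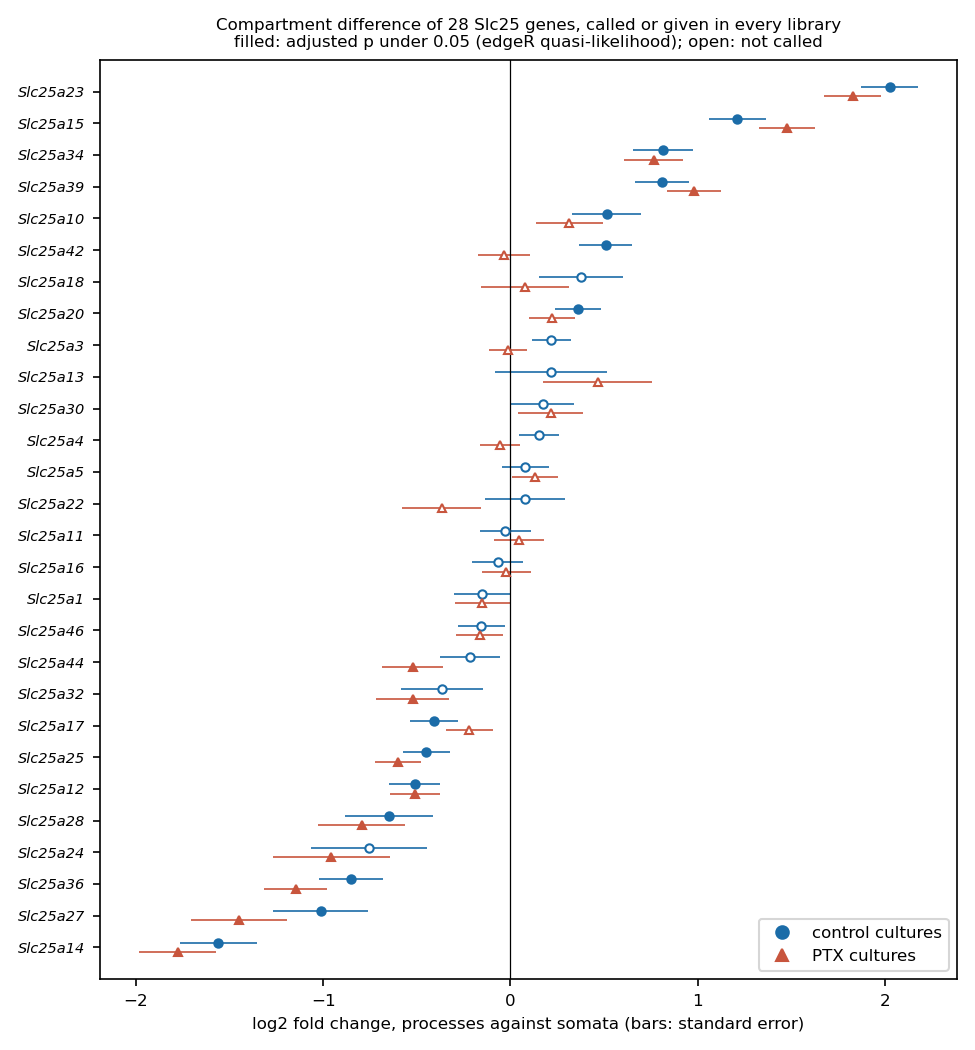
Log2 fold change between processes and somata (x axis, bars are standard errors) of 28 Slc25 genes, those that passed in either culture or whose level is given in every library, ordered by the value in control cultures (circles), with PTX cultures as triangles; filled symbols passed an adjusted p under 0.05. Slc25a23 at 2.02 and Slc25a15 at 1.21 stand at the top and Slc25a14 at -1.56 at the bottom in control cultures, and the PTX values follow on the same side of 0 for each of these.

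In PTX cultures the same comparison gave 4 members higher in processes (Slc25a15, Slc25a23, Slc25a34 and Slc25a39). It gave 9 lower (Slc25a12, Slc25a14, Slc25a24, Slc25a25, Slc25a27, Slc25a28, Slc25a32, Slc25a36 and Slc25a44). These were 10.3% and 23.1% of the 39 tested members, against 25.7% and 24% of all tested genes. With the replicate block the counts were 4 and 10, against 30% and 29.6%. The summed level of the tested members, in CPM, was 1035 and 1074 in control somata, 1156 and 1134 in PTX somata, 1337 and 1258 in control processes, and 1226 and 1200 in PTX processes.

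The second comparison asked what chronic PTX did to the carriers within each compartment. Member counts in this paragraph are out of 39, while the values set against them are percentages of all genes. In somata, 1 of the 39 members rose (2.56%), the folate/FAD carrier Slc25a32, and 0 fell. Among all tested genes 2.09% were higher and 1.5% lower. At an unadjusted p under 0.05, 7 of the 39 were higher and 2 of the 39 lower, against 8.27% and 7.3% of all tested genes. In processes, 1 member fell, Slc25a23, and 0 rose, against 2.1% and 1.64%; at an unadjusted p under 0.05 the counts were 3 higher and 2 lower, against 7.67% and 8.88%. The likelihood ratio test gave 2 members higher and 1 lower in somata, against 3.78% and 3.01% of all genes, and 0 higher and 1 lower in processes, against 2.96% and 3.67%. DESeq2 gave 0 higher and 1 lower in each compartment, against 2.02% and 1.5% of all genes in somata, and 2.51% and 2.79% of the 12367 genes to which it gave an adjusted p in processes. With the replicate block, 6 members were higher and 2 lower in somata, against 7.21% and 6.79% of all genes, and 1 was higher and 2 lower in processes, against 5.1% and 6.09%. Median log2 fold changes were 0.03 in somata and 0.00 in processes, beside -0.01 and -0.01 for all tested genes. Single members lay on both sides of 0, from -0.59 to 0.80 in somata (21 above 0 and 18 below). In processes they lay from -0.78 to 0.64 (20 above and 19 below). Of all 14309 tested genes, 6996 lay above 0 in somata and 6926 in processes.

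Slc25a23 was lower with PTX in both compartments. In somata it went from 61.4 and 60.1 CPM to 39.7 and 41.2, and in processes from 285 and 209 CPM to 155 and 132. All 4 PTX libraries lay below the control libraries of their compartment. The log2 fold change was -0.78 in processes (SE 0.148, adjusted p = 0.0185), so that the level fell by 41.9%, and -0.59 in somata (SE 0.149, adjusted p = 0.0599, and 0.000414 with the replicate block). Without replicate 1 of control processes, the highest library, the processes value was -0.54 with an adjusted p of 0.12, and it did not pass without either PTX processes library (adjusted p = 0.0556 without replicate 1 and 0.125 without replicate 2). Beside this fall, the summed astrocyte markers in processes were 14296 and 12740 CPM in control and 10831 and 12112 in PTX libraries. Most of this sum was Gfap, and 0 of the 8 passed the test, with 6 below 0 and 2 above. With the block Gja1 fell (-0.44, adjusted p = 0.00421) and Slc1a3 rose (0.40, adjusted p = 0.0171). Of the 8 neuronal markers, Slc17a7 (0.73, adjusted p = 0.0172) and Gad2 (0.92, adjusted p = 0.0384) were higher in PTX processes and 0 were lower, with a median of 0.22, while their sum, most of it Map2, was 5337 and 5045 CPM in control and 4724 and 4028 in PTX libraries. In somata Gad1 and Gad2 were higher with PTX, as was the endothelial marker Kdr, and the neuronal marker Rbfox3 and the astrocyte marker Gja1 were lower. The part of these markers in the PTX results was not tested.

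Slc25a25 went the other way. Its level in somata was 35.0 and 31.8 CPM in control and 41.4 and 44.5 in PTX cultures, and in processes 25.6 and 23.3 against 30.5 and 26.1. The groups did not overlap in either compartment, and the log2 fold changes were 0.36 in somata (SE 0.116, adjusted p = 0.138, and 0.0107 with the block) and 0.21 in processes (SE 0.131, adjusted p = 0.478). It overlaps Naif1 on the opposite strand, and the strand setting of the counting was not stated. Slc25a24, the third of this class with enough reads, stood at -0.01 in somata and -0.21 in processes.

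Slc25a32 brings folate, and by other accounts FAD, into the matrix. It stood at 6.33 and 5.33 CPM in control somata and 11.1 and 9.10 in PTX somata, and at 4.91 and 4.11 against 6.20 and 7.84 in processes. PTX libraries lay above control libraries in each compartment. The rise was 1.74-fold in somata (log2 fold change 0.80, SE 0.180, adjusted p = 0.0351), and 0.64 on the log2 scale in processes (SE 0.232, adjusted p = 0.184), where it rested on 35 to 78 reads per library. DESeq2 gave an adjusted p of 0.0663 in somata, and with any 1 of the 4 somata libraries left out the adjusted p lay between 0.0673 and 0.31.

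**Figure D3:**
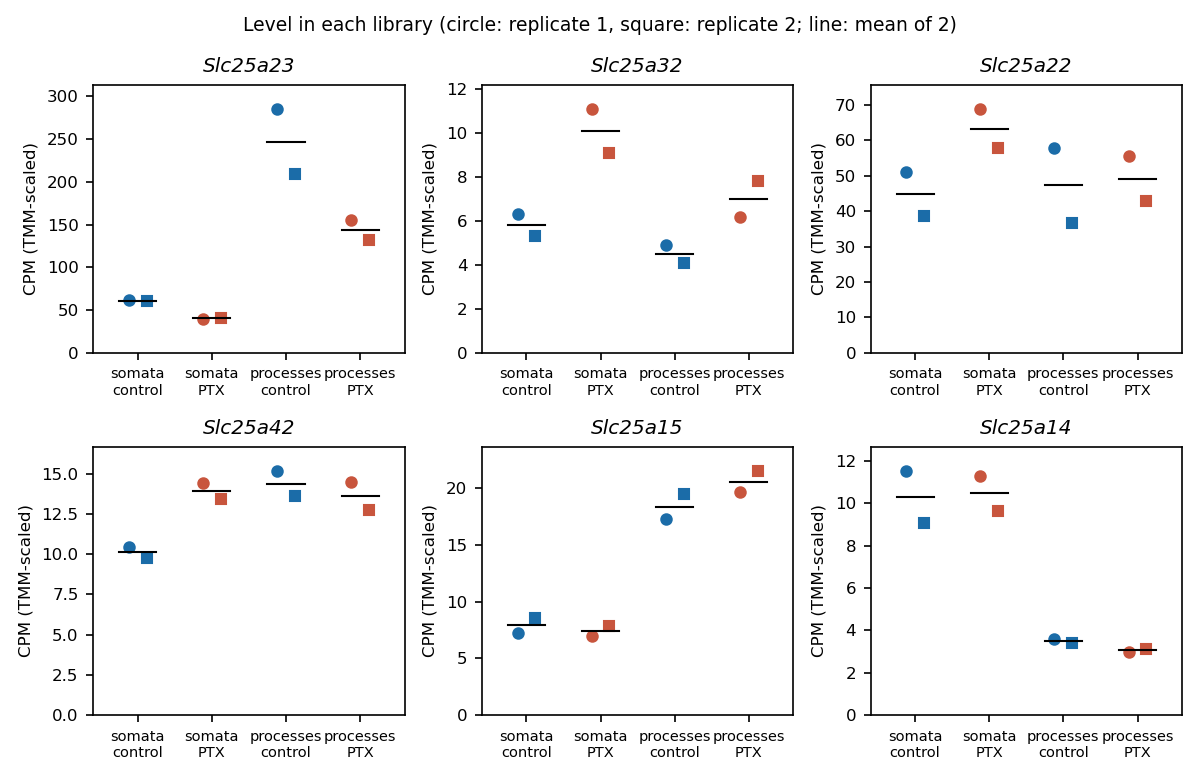
Level of 6 Slc25 genes in each of the 8 libraries, in TMM-scaled CPM from 0 (y axis), by condition (x axis); circles are replicate 1, squares replicate 2, and lines the mean of the 2. Slc25a23 lies at 132 to 155 CPM in PTX processes against 209 to 285 in control processes, and the Slc25a32 libraries of PTX somata (9.10 and 11.1) lie above those of control somata.

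With the replicate block, 4 more members were higher in PTX somata. The citrate carrier Slc25a1, which supplies cytosolic acetyl groups, stood at 20.7 and 20.8 CPM in control and 30.0 and 24.2 in PTX somata, and at 18.8 and 18.6 against 27.3 and 21.7 in processes. Slc25a16, which has been assigned to coenzyme A, stood at 15.4 and 15.2 against 22.1 and 18.8 CPM in somata and at 15.2 and 14.1 against 20.7 and 19.6 in processes. For both genes every PTX library lay above every control library of its compartment. The log2 fold changes of Slc25a1 were 0.39 in somata (adjusted p = 0.19, and 0.0167 with the block) and 0.39 in processes (adjusted p = 0.244, and 0.0692 with the block). Those of Slc25a16 were 0.41 (adjusted p = 0.109, and 0.0109 with the block) and 0.46 (adjusted p = 0.116, and 0.0307 with the block), the 1 rise that the block gave in processes. Slc25a16 overlaps Dna2 on the same strand.

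Slc25a22 and Slc25a42 were the other 2. The glutamate carrier Slc25a22, with the levels given above, was higher by 0.50 in somata (SE 0.206, adjusted p = 0.263, and 0.00052 with the block), where replicate 1 lay above replicate 2 in both cultures, and by 0.05 in processes (SE 0.220, adjusted p = 0.944). The coenzyme A carrier Slc25a42 stood at 10.5 and 9.79 CPM in control somata, 14.4 and 13.4 in PTX somata, 15.2 and 13.6 in control processes and 14.5 and 12.8 in PTX processes. Control somata were the lowest condition, and the other 3 overlapped. Its PTX effect was 0.46 in somata (SE 0.132, adjusted p = 0.0902, and 0.00928 with the block) and -0.08 in processes (adjusted p = 0.844), and its compartment difference was 0.51 in control (adjusted p = 0.013) and -0.03 in PTX cultures (adjusted p = 0.853). Leaving out replicate 2 of control somata or replicate 1 of control processes took the control difference to adjusted p = 0.0795 and 0.0774.

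Falls under the block were fewer. Slc25a30, a relative of the uncoupling proteins first described in kidney, stood at 9.90 and 11.2 CPM in control and 7.41 and 8.47 in PTX somata, and at 10.6 and 13.3 against 8.61 and 9.75 in processes. PTX libraries lay below control libraries in both compartments. The effects were -0.42 (SE 0.157, adjusted p = 0.213, and 0.0337 with the block) and -0.37 (SE 0.182, adjusted p = 0.34). The glutamate carrier Slc25a18 went from 15.1 and 14.2 CPM in control processes to 10.1 and 9.05 in PTX processes, at -0.61 (SE 0.245, adjusted p = 0.236, and 0.0284 with the block), and its somata groups overlapped at -0.31 (adjusted p = 0.577). The summed astrocyte markers in processes, given beside Slc25a23 and mostly Gfap, were also lower in the PTX libraries. Single astrocyte markers went both ways there, and their part here was not tested.

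The carriers of ATP synthesis and of the malate-aspartate shuttle had no call in either compartment, with or without the block. Slc25a3 and Slc25a4 stood at 0.25 and 0.23 in somata (adjusted p = 0.247 and 0.331), with PTX libraries above control libraries, and at 0.02 and 0.02 in processes, where groups overlapped. Slc25a5, Slc25a11, Slc25a12 and Slc25a13 lay between -0.10 and 0.03 in somata and between -0.09 and 0.15 in processes. UCP5 (Slc25a14) was at 0.03 and -0.19, UCP4 (Slc25a27) at 0.21 and -0.23, and Slc25a46 at 0.03 and 0.02. Standard errors of the PTX effect had a median of 0.157 in somata and 0.189 in processes, and ranged from 0.104 to 0.579 in processes, and effects of this size could not be told from the spread between libraries. Of the 80 respiratory chain genes, 0 passed in somata, where 64 lay above 0 with a median of 0.09, and Ndufa8 rose in processes (0.78, adjusted p = 0.00471), where 36 lay above 0. With the block 2 rose in somata, Atp5mc1 and Ndufb7, and 1 in processes. Of the 19 tricarboxylic acid cycle enzymes 0 passed in either compartment, with 16 above 0 in somata (median 0.12) and 10 in processes. With the block Fh rose in somata and Idh2 in processes. Beside the counts above 0 of these 2 lists, 6996 of all 14309 tested genes lay above 0 in somata and 6926 in processes. Of the 21 other mitochondrial transport proteins 0 passed, and with the block Sfxn5 fell in somata, whereas in processes Mpc2 rose and Letm1 and Abcb10 fell. Among the shuttle and glutamate enzymes, Mdh1 rose in somata with the block. Members of these lists named with the block were picked for that call.

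**Figure D4:**
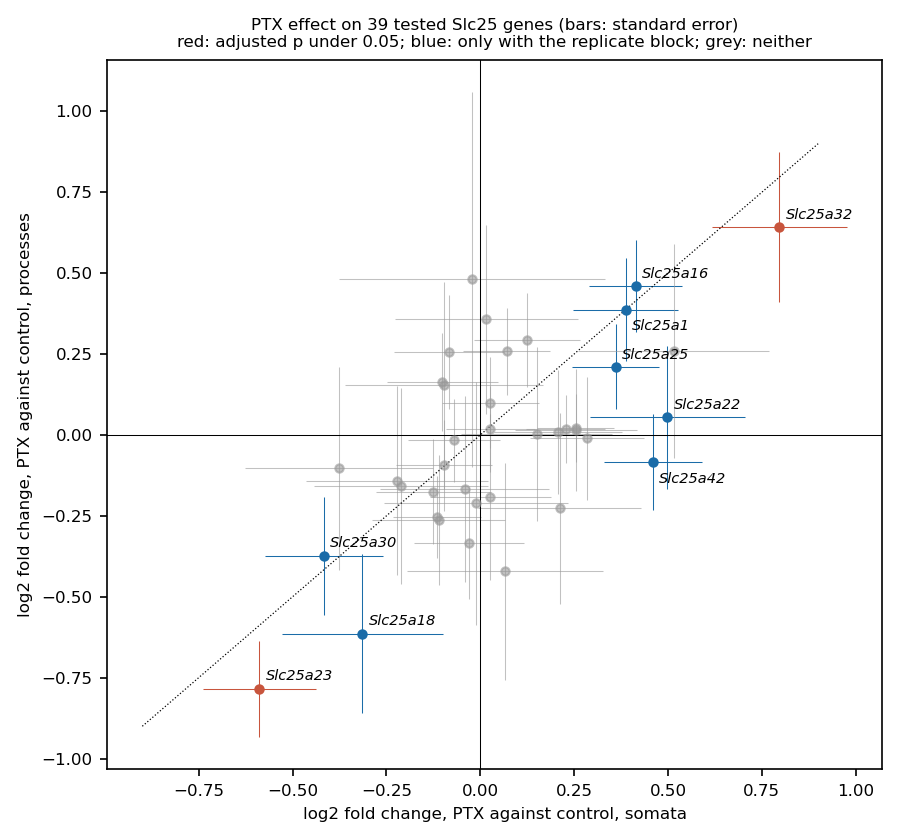
Log2 fold change of PTX against control in somata (x axis) and in processes (y axis) of the 39 tested Slc25 genes, with standard errors as bars and equal effects on the dotted line; red points passed in at least 1 compartment, blue points only with the replicate block. Slc25a32 (0.80 and 0.64) and Slc25a23 (-0.59 and -0.78) lie near the dotted line at opposite ends, and Slc25a22 and Slc25a42 lie near 0 on the y axis.

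The third comparison asked whether the PTX effect differed between the compartments (the effect in processes minus that in somata). No member passed, nor did any of the 14309 genes (0%) by edgeR's quasi-likelihood test. An unadjusted p under 0.05 was reached by 1 of the 39 members and by 4% of all genes. The likelihood ratio test and DESeq2 each called 4 genes, and the fit with the replicate block called 15 (0.105%), with 0 members among these in any of the fits. The member was Slc25a42, at -0.54 (SE 0.198, unadjusted p = 0.0198, adjusted p = 1, and 0.379 with the block). Next in size were Slc25a35 at 0.50 (SE 0.678), Slc25a40 at -0.49 (SE 0.425) and Slc25a22 at -0.44 (SE 0.301), with an adjusted p of 1 for each, and of 0.889, 0.787 and 0.349 with the block. For Slc25a23 and Slc25a32 the difference was -0.20 (SE 0.210) and -0.16 (SE 0.295). The PTX effect had the same sign in both compartments for 30 of the 39 members (76.9%), beside 67.3% of all tested genes. The median difference was -0.14 for the members, beside -0.01 for all tested genes. Of the members 24 lay below 0 and 15 above, and of all 14309 tested genes 7397 lay below 0 and 6912 above.

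The 9 other members had too few reads to test. These were the testis ADP/ATP carrier Slc25a31, the oxodicarboxylate carrier Slc25a21, the ATP-Mg/phosphate carrier Slc25a41, and Slc25a43, Slc25a45, Slc25a47 and Slc25a54, each with 9 reads or fewer in every library. Slc25a48 reached 22 reads in 1 library and had 0 to 9 in the others. Slc25a52, named as a relative of the NAD carrier Slc25a51, had 9 to 23 reads per library, or 0.593 to 0.827 CPM in somata and 1.03 to 1.61 in processes. Of the tested members not described so far, Slc25a6, Slc25a26, Slc25a35, Slc25a37 and Slc25a51 ranged from -0.96 (Slc25a35, on 3 and 7 reads in control processes) to 0.26 between control compartments, and none passed in any comparison. Slc25a6 was placed in none of the carrier classes used here.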

How the data were processed

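Gene expression was measured by RNA sequencing of 8 libraries, from somata and processes of rat hippocampal neurons with or without PTX. The deposited values are whole-number counts per gene symbol, without normalization. By the study's methods, reads were aligned with Subread and counted with featureCounts on an Ensembl annotation, whereas the submitters' processing notes name STAR, featureCounts, edgeR and the build Rnor_6.0; whether strand was used in counting is not given in the sources used here. The authors' tables of their own comparisons were not used. Because counts were summed by symbol, reads of near-identical copies, pseudogenes and overlapping genes cannot be separated, and RefSeq (GRCr8) names 31 Slc25 pseudogenes. Overlaps are not given for every called member. Among those not given above, Slc25a17 overlaps LOC134479943 on the same strand. Slc25a14 overlaps Zfp280c and Slc25a42 overlaps Tmem161a, with the relative strand not known here. Lengths of transcripts were not at hand, so levels were not compared between genes.

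Conditions and replicate numbers came from the sample labels. A gene was kept if 2 or more libraries held over 20 of its reads, TMM factors were computed, and all 8 libraries were fitted together in edgeR 4.0.16 (R 4.3.3) with 1 coefficient per condition. P-values are two-sided, from glmQLFTest, adjusted by the Benjamini-Hochberg method over 14309 genes, with a threshold of 0.05. A standard error is |log2 fold change| over the root of its F value. The fit was also run on simulated counts that held no difference between replicate 1 and replicate 2. These libraries show such a difference, so that run does not check the p-values given here. Levels are CPM after TMM scaling. The main fit did not pair libraries. Only the fit with the replicate block treated same-numbered libraries as pairs. It was added since the gene-wise difference of replicate 2 and replicate 1 was correlated in every pair of conditions. Over all tested genes r was 0.54 for the somata conditions and 0.274 to 0.367 elsewhere. Over the tested members alone r was 0.559 for the somata conditions and 0.555 for the processes conditions. Across compartments the members' r was lower, from 0.0277 (control somata with PTX processes) to 0.314. What the number marks is not stated. The block lowered the common dispersion from 0.0132 to 0.00459.

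Results were recomputed with the likelihood ratio test, DESeq2 1.42.0, other scalings and filters, leaving out mitochondrial genome transcripts, only the 4 libraries compared, the replicate block, and leaving out each library in turn, where a lone library was assumed to vary like the other conditions. Values in all libraries are given for members called for PTX in either fit, for members called with a log2 fold change beyond 1 between control compartments, and for 12 well-known carriers; of other lists, the 3 genes with the largest absolute differences. The members, gene lists and tests were chosen with earlier results of these data known. Promoter windows and gene overlaps came from RefSeq tables of GRCr8, a later assembly than that of the counts, and were matched by symbol (38 of 48 members had a unique window). Some single genes are left out of the text. Proteins, exon usage and the study's other assays were not analysed here.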

Additional observations from a re-analysis of the deposited data

Results flagged for a closer look

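Slc25a51, the mitochondrial NAD carrier, was picked out because its libraries moved in opposite directions in the 2 compartments. In somata it stood at 8.42 and 8.42 CPM in control and 8.02 and 7.88 in PTX libraries, and in processes at 6.80 and 8.46 against 8.73 and 9.45. Both PTX libraries were lower in somata and both were higher in processes, by log2 fold changes of -0.08 and 0.26 (edgeR adjusted p = 0.874 and 0.527). The difference of 0.34 between these effects did not pass its own test (adjusted p = 1, and 0.718 with the replicate block).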

How the results depend on the processing

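For PTX in somata, the likelihood ratio test gave 2 members higher and 1 lower, DESeq2 0 and 1, no filter 2 and 1, and the replicate block 6 and 2; upper quartile factors and the fit of only 4 libraries each gave 1 lower. For PTX in processes, the block gave 1 higher and 2 lower, and no filter 2 lower with a median log2 fold change of -0.0402. Scaling by library size alone moved the median of all genes between control compartments from -0.05 to -1.86; the member medians were then 0.0924 (PTX in somata), 0.0493 (PTX in processes), -1.75 (control compartments, 0 higher and 38 lower) and -1.89 (PTX-culture compartments, 0 higher and 37 lower). Under it, control-culture compartment differences turned negative for Slc25a22 (-1.75), Slc25a30 (-1.63), Slc25a42 (-1.30), Slc25a18 (-1.43), Slc25a15 (-0.59), Slc25a3 (-1.59), Slc25a4 (-1.65), Slc25a5 (-1.73) and Slc25a13 (-1.59). In PTX cultures they turned negative for Slc25a23 (-0.0053), Slc25a30 (-1.61), Slc25a18 (-1.75), Slc25a15 (-0.35), Slc25a5 (-1.69), Slc25a11 (-1.78) and Slc25a13 (-1.35). By construction this scaling divides by totals that include the mitochondrial rRNA. Shares of all tested genes called are not given for the other scalings, filters and left-out libraries, so such counts do not set the members apart. Upper quartile factors gave 4 higher and 11 lower between control compartments, with medians of -0.15 (control), -0.23 (PTX cultures) and -0.11 (difference of PTX effects). The control compartment median was 0.0191 without a filter and -0.0045 with at least 10 reads in every library.

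With each library left out in turn, members called for PTX were 0 to 1 higher and 0 to 1 lower in somata, and 0 to 1 lower in processes; Slc25a32 lost its call without any 1 of the 4 somata libraries. Between control compartments 4 to 7 were higher (4 without replicate 2 of control somata) and 3 to 7 lower (3 without replicate 2 of control processes), with medians from -0.0548 to 0.0484. In PTX cultures 5 to 9 were lower (5 without replicate 1 of PTX somata). The median difference of the PTX effects ranged from -0.12 to -0.0485. Between control compartments Slc25a12 lost its call without replicate 2 of control somata (adjusted p = 0.0884) or replicate 1 of control processes (0.0733), and Slc25a25 without replicate 1 of control somata (0.0877) or replicate 2 of control processes (0.0783). In PTX cultures Slc25a12 lost it without replicate 2 of PTX somata (0.0636) or replicate 1 of PTX processes (0.0562), and Slc25a32 without any of 4 libraries (0.0574 to 0.275). The causes were not tested. Among the Slc25 members, the replicate block changed no call other than those given in the text. Of the 39 tested members, 11 averaged fewer than 50 reads in processes, and the median standard error of the PTX effect was 0.189 there and 0.157 in somata, while PTX calls over all genes numbered 535 in processes and 513 in somata.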
